A study of Mus musculus with 12 samples.

Results

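The major histocompatibility complex (MHC) class I genes of mouse bone marrow are described here through 10 genes: H2-K1, H2-D1, H2-Q4, H2-Q6, H2-Q7, H2-T22, H2-T23, H2-M3, B2m and Nlrc5. They were chosen by name from a table of 21853 protein-coding genes, and all 10 were found there. The choice was made with earlier results of these libraries known. The levels below are therefore a description, and the p-values of the members are given as the output of a fit over all genes, not as independent evidence.

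Whole bone marrow cells of B6 mice were profiled by RNA sequencing 14 days after total body irradiation (TBI), in 4 groups of 3 libraries, 12 in all. The control mice were not irradiated. The TBI mice received 5 Gy of γ-rays at 0.66 Gy per minute, then 100 µL of olive oil by gavage as vehicle. The TBI+DEIX mice received the same irradiation and 25 mg per kg of DEIX by mouth once per day for 14 days. DEIX stands for deinoxanthin, a carotenoid of a radiation-resistant bacterium. The DEIX mice received the compound alone. No vehicle is stated for the control, DEIX or TBI+DEIX groups. Irradiation and gavage with oil therefore cannot be told apart in TBI against control, nor can the compound and the act of oral dosing in DEIX against control. The vehicle is likewise not matched by the labels in TBI+DEIX against TBI or in the interaction of irradiation and DEIX. The labels give no age or sex and do not say whether the 3 libraries of a group came from separate or pooled mice. The p-values then measure only the spread between these libraries, which may be technical.

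Classical class I molecules sit on the surface of nearly all nucleated cells and present peptides cut from the cell's own proteins to CD8+ T cells, while natural killer cells read them as a sign of health. Each molecule pairs a heavy chain with β2-microglobulin, and the peptide is pumped into the endoplasmic reticulum by the TAP transporter. Nonclassical heavy chains have a similar fold and more restricted ligands. The genes are switched on together by interferons and by the transactivator NLRC5, which works through factors bound at an upstream module of class I promoters. Marrow holds many cell types with unequal class I levels, and in bulk samples fewer cells of a type and less RNA per cell cannot be told apart.

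The promoters are shown first because 5 heavy chain genes, H2-K1, H2-D1, H2-Q4, H2-Q6 and H2-Q7, share most of the letters of this stretch. RefSeq promoter windows of 300 bases (250 before to 50 after a start, build GRCm38.p6) were found for 9 of the 10 members, all but Nlrc5. The stretches run 5′ to 3′ on the gene's strand from the GGGNNTTCC match, an NF-kB-type letter pattern, to the last CCAAT match. They lie at chr17:34000335-34000458 on the minus strand (H2-K1) and at chr17:35379444-35379566 (H2-Q4), chr17:35424677-35424799 (H2-Q6) and chr17:35439022-35439143 (H2-Q7) on the plus strand. Capitals mark the matches.
H2-K1: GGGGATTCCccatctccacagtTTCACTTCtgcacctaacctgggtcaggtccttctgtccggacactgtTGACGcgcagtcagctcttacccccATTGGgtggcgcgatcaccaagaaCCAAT
H2-Q4: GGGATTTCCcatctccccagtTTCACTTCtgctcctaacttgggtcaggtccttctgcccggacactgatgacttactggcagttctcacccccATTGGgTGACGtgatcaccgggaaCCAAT
H2-Q6: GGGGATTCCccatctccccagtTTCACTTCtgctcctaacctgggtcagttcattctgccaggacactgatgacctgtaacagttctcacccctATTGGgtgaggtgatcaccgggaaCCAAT
H2-Q7: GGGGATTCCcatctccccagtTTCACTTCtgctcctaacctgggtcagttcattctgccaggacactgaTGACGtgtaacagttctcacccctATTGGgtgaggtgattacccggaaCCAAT
The 4 letter patterns searched on both strands were GGGNNTTCC, GAANNGAA, TGACG and CCAAT. GGGNNTTCC was found in the windows of 5 of 9 members (the 4 above and H2-D1) and in 5.82% of all 32851 windows. The interferon-type repeat GAANNGAA, here in its reverse reading, was found in 7 of 9 members and 20.1% of windows. TGACG, letters that also occur in the X box of the module, was found in 7 of 9 members and 20.8% of windows. It lies before ATTGG in H2-K1, H2-D1 and H2-Q7 but after it in H2-Q4, so the H2-Q4 match is not at the X box position. CCAAT, the letters of the Y box, was found in 9 of 9 members and 37.4% of windows. The matches did not overlap each other in the stretches shown. H2-Q6 and H2-Q7 were 96.7% identical over the stretch, and H2-D1 and H2-Q6 were the least alike of the 5 genes at 82.3%. The H2-D1 stretch is not printed because the GENCODE gene model covers all of it. The last 13 bases of the H2-K1 stretch, with its last CCAAT match, also lie inside the H2-K1 gene model. H2-Q6 alone of these 5 lacked the TGACG letters in its window. A match describes letters and not a bound site.

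FPKM values (fragments scaled to transcript length and to the mapped fragments of the library) were compared, so levels can be set side by side between genes. Total reads per library are unknown. The FPKM worth of 1 read, which is higher in a shallower library, was estimated as the most common ratio of a library's low values to those of control replicate 1. It was 1.51 and 1.90 in TBI+DEIX replicates 2 and 3 and 0.877 to 1.68 in the other groups. For TBI+DEIX replicate 1 the estimate of 2.14 is uncertain, since that ratio was only 1.06 times as common as the next candidate. The TBI+DEIX libraries spread most: the root mean square SD within the group was 0.42 on the log2 scale, against 0.14 to 0.24 in the other groups. TBI+DEIX replicate 1 stood apart in many of the genes below, so counts of genes called in comparisons of that group are given with and without it.

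Gene positions are those of GENCODE vM21 on GRCm38. The classical heavy chains H2-K1 (ENSMUSG00000061232.16, chr17:33996017-34000347) and H2-D1 (ENSMUSG00000073411.11, chr17:35262730-35267499) were the most abundant heavy chains in every group. H2-K1 stood at 499, 633 and 613 FPKM in the control libraries, 213, 255 and 232 in TBI, 286, 282 and 278 in DEIX, and 195, 346 and 484 in TBI+DEIX. All 9 libraries of the 3 treated groups were below the lowest control. The 3 DEIX values lay within a few FPKM of each other, whereas the TBI+DEIX values ran from below every TBI library to nearly the lowest control. H2-D1 stood at 671, 854 and 895 FPKM in control, 500, 482 and 453 in TBI, 623, 599 and 621 in DEIX, and 463, 839 and 924 in TBI+DEIX. TBI+DEIX replicates 2 and 3 were inside or above the control range for H2-D1, so the groups overlapped there.

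The nonclassical Q genes come next. H2-Q4 (ENSMUSG00000035929.11, chr17:35379617-35385290) encodes a heavy chain of the Qa region. It stood at 66.7, 87.0 and 69.0 FPKM in control, 17.96, 28.4 and 29.0 in TBI, 28.1, 30.1 and 27.5 in DEIX, and 28.6, 31.9 and 43.0 in TBI+DEIX. H2-Q6 (ENSMUSG00000073409.12, chr17:35424850-35430055) and H2-Q7 (ENSMUSG00000060550.16, chr17:35439155-35443773) encode the Qa-2 antigen, which is tethered to the membrane by a lipid anchor. H2-Q6 stood at 53.7, 75.2 and 54.6 FPKM in control, 4.42, 8.44 and 7.74 in TBI, 13.5, 16.4 and 13.7 in DEIX, and 9.25, 12.1 and 16.6 in TBI+DEIX. For H2-Q6 the groups were ordered with no overlap between control, TBI+DEIX and TBI, and the DEIX libraries lay inside the upper part of the TBI+DEIX range. H2-Q7 stood at 49.8, 71.5 and 46.2 FPKM in control, 6.94, 11.9 and 9.15 in TBI, 16.9, 16.5 and 17.6 in DEIX, and 6.67, 20.5 and 27.4 in TBI+DEIX. TBI+DEIX replicate 1 was below all 3 TBI libraries in H2-Q7 and above them in H2-Q6. The 2 genes share sequence: 11.7% of the 100-base windows of the H2-Q7 transcript also occur in H2-Q6. The shares found in any other gene were 16.4% for H2-Q7 and 10.8% for H2-Q6. How shared reads were assigned is not given in the sources used here, so the split between the 2 is uncertain.

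Among the T and M genes, H2-T22 (ENSMUSG00000056116.18, chr17:36037128-36042747), whose product is bound by some γδ T cell receptors, stood at 41.1, 50.9 and 46.8 FPKM in control, 21.6, 22.7 and 21.2 in TBI, 29.7, 25.6 and 30.8 in DEIX, and 17.7, 29.0 and 37.9 in TBI+DEIX. It shares 9.81% of its transcript windows with H2-T10 and 14.2% with any other gene, so its level is uncertain in the same way. Shares with any other gene were 7.28% for H2-T23, 4.64% for H2-D1, 2.66% for H2-Q4 and 0 for H2-K1, H2-M3, B2m and Nlrc5. H2-T23 (ENSMUSG00000067212.8, chr17:36029773-36032855) encodes Qa-1, the ligand of the natural killer receptor pair CD94 and NKG2. It stood at 107, 129 and 151 FPKM in control, 74.7, 69.7 and 66.1 in TBI, 93.7, 81.3 and 95.6 in DEIX, and 40.3, 113 and 134 in TBI+DEIX. H2-M3 (ENSMUSG00000016206.6, chr17:37270220-37274484) presents peptides that start with N-formylmethionine, as bacterial peptides do. It had the lowest heavy chain level, at 8.38, 11.1 and 10.38 FPKM in control, 4.12, 4.06 and 3.44 in TBI, 7.06, 5.50 and 5.90 in DEIX, and 3.65, 4.65 and 6.19 in TBI+DEIX. For all 3 genes every TBI and every DEIX library was below every control library. Only in H2-T23 did TBI+DEIX libraries, replicates 2 and 3, reach the control range.

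The light chain gene B2m (ENSMUSG00000060802.8, chr2:122147686-122153083) stood at 2303, 2835 and 2059 FPKM in control, 1341, 1427 and 1132 in TBI, 1777, 1443 and 1509 in DEIX, and 465, 1896 and 2475 in TBI+DEIX. The lowest and the second highest B2m values of all 12 libraries were both in the TBI+DEIX group. Nlrc5 (ENSMUSG00000074151.13, chr8:94434356-94527272), the transactivator, stood at 15.6, 18.9 and 15.2 FPKM in control, 5.52, 7.30 and 6.22 in TBI, 9.51, 8.53 and 9.45 in DEIX, and 6.01, 9.83 and 12.9 in TBI+DEIX. The 3 DEIX libraries lay between the TBI and the control libraries, with no overlap.

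**Figure D1:**
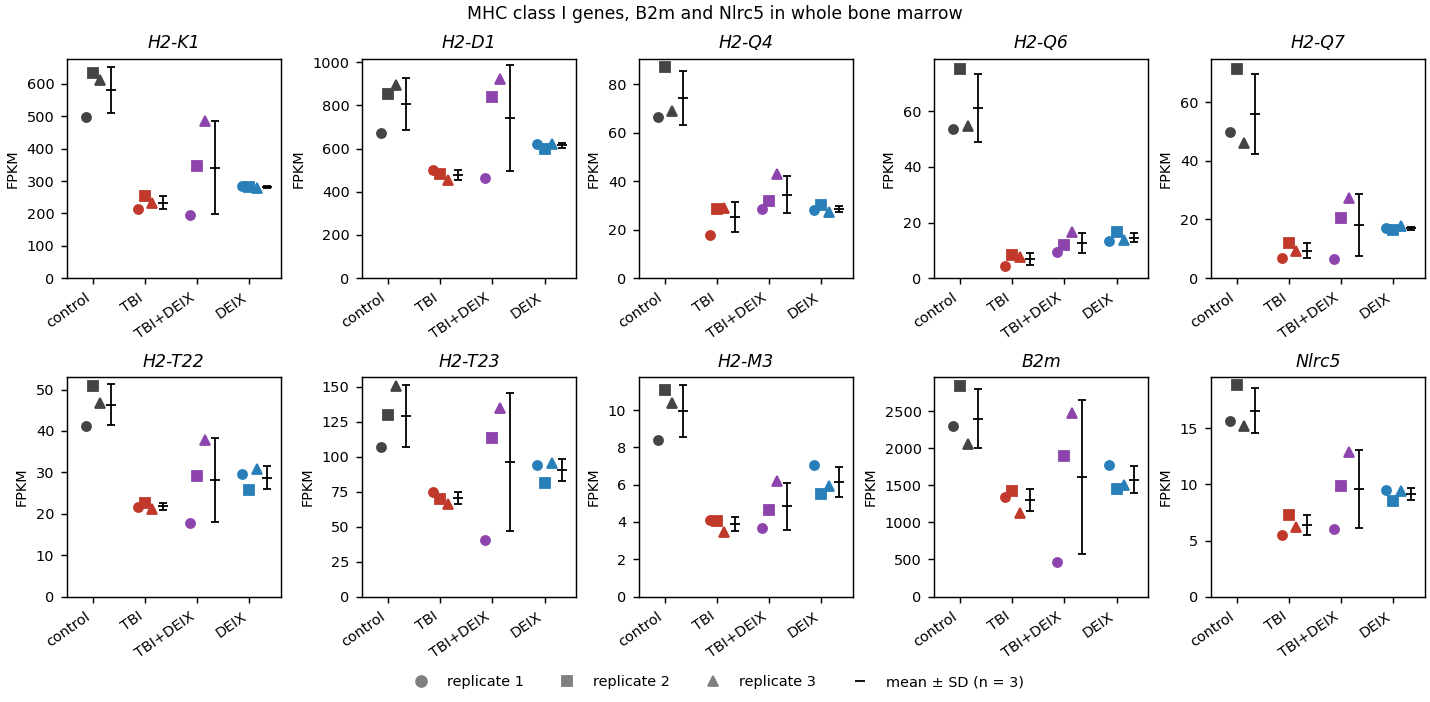
FPKM of the 10 members in each library (points, with the replicate number as the symbol) and the group mean ± SD (n = 3), 1 panel per gene with its own linear axis from 0. Every TBI and DEIX library lies below every control library in all 10 panels, and TBI+DEIX replicate 1 is the lowest TBI+DEIX library in each.

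The first comparison set TBI against control. All 10 members had lower values in every TBI library than in every control library, as did 16.3% of the 10994 genes tested. By limma with Benjamini-Hochberg adjustment over all genes, 7 of 10 members fell (adjusted p under 0.05), and 3.10% of all genes were called lower. On the log2(FPKM + 1) scale, which understates the change of low genes, the median change of the members was -1.21 and that of all genes was 0.05. H2-Q6 fell by 3.01 (SE 0.24, limma adjusted p = 0.000119), to 0.125 of control on that scale. H2-Q7 fell by 2.46 (SE 0.39, limma adjusted p = 0.0056) and H2-Q4 by 1.55 (SE 0.19, limma adjusted p = 0.00155). H2-K1, Nlrc5, H2-M3 and H2-T22 fell by 1.31, 1.26, 1.16 and 1.05, with limma adjusted p = 0.0189, 0.00721, 0.00296 and 0.0196. H2-D1 (-0.74, SE 0.24), H2-T23 (-0.86, SE 0.34) and B2m (-0.88, SE 0.49) did not pass, with limma adjusted p = 0.119, 0.218 and 0.382. All 3 passed when only the control and TBI libraries were fitted (limma adjusted p = 0.0119, 0.00553 and 0.015), a fit that called 12.9% of all genes in either direction. H2-K1 and H2-T22 also missed the threshold when any 1 of the 6 libraries was left out, at limma adjusted p from 0.0511 to 0.0927.

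DEIX given to unirradiated mice was set against control in the same way. All 10 members were again lower in every DEIX library than in every control library, as were 17.2% of genes tested. By limma, 6 of 10 members fell and 2.72% of genes were called lower, with a median change of -0.73 over the members and 0.02 over all genes. H2-Q6 fell by 1.99 (SE 0.24, limma adjusted p = 0.00286), H2-Q7 by 1.63 (SE 0.39, limma adjusted p = 0.0324) and H2-Q4 by 1.34 (SE 0.19, limma adjusted p = 0.00534). H2-K1 fell by 1.04 (SE 0.26, limma adjusted p = 0.038). Nlrc5 and H2-M3 fell by 0.79 and 0.61, with limma adjusted p = 0.0454 and 0.0479. H2-T22 (-0.67), B2m (-0.60), H2-T23 (-0.50) and H2-D1 (-0.38) did not pass. Without any 1 of the 6 libraries only H2-Q4 and H2-Q6 remained called, so 4 of the 6 calls rest on all libraries being present.

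TBI+DEIX was then set against control. In 7 of 10 members every TBI+DEIX library was below every control library, as in 21.1% of genes tested. H2-D1, H2-T23 and B2m overlapped. By limma the same 7 members fell, and 13.1% of genes were called lower. The median change was -0.86 over the members and 0.02 over all genes. H2-Q6 fell by 2.205 (limma adjusted p = 0.000229), H2-Q7 by 1.74 (limma adjusted p = 0.00735) and H2-Q4 by 1.09 (limma adjusted p = 0.00228). H2-M3, H2-K1, Nlrc5 and H2-T22 fell by 0.92, 0.85, 0.78 and 0.75. H2-D1 differed by -0.17 (SE 0.24, limma adjusted p = 0.615), and without TBI+DEIX replicate 1 by 0.14. Without that library the median of the members was -0.50, with 7 again called lower, as were 15.3% of all genes. Without control replicate 2 only 4 members were called, since H2-K1, H2-T22 and Nlrc5 lost their calls (limma adjusted p from 0.0691 to 0.0982).

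The effect of DEIX within irradiated mice, TBI+DEIX against TBI, depended on 1 library. With all 12 libraries no member passed the limma test at an adjusted p under 0.05. Of all genes, 8.10% passed it in either direction. An unadjusted p under 0.05 was found for 4 of the 10 and for 27.2% of all genes. The median change was 0.45 over the members and 0.00 over all genes. H2-Q6 alone had every TBI+DEIX library above every TBI library, as did 14.5% of genes tested, and its change was 0.80 (SE 0.24, limma adjusted p = 0.0621). With H2-Q6 and H2-Q7 summed, the libraries stood at 11.35, 20.3 and 16.9 FPKM in TBI and 15.9, 32.5 and 44.1 in TBI+DEIX, so the groups overlapped, and the change was 0.81 (limma adjusted p = 0.125). H2-D1 changed by 0.57 (limma adjusted p = 0.145) and B2m by 0.00 (limma adjusted p = 0.996). The B2m value had a small negative sign under the TPM and median-of-ratios scalings. Without TBI+DEIX replicate 1, 8 of 10 members rose by limma, while 16.2% of genes were called higher. In that fit H2-Q7 rose by 1.29 (limma adjusted p = 0.00571), H2-Q6 by 0.99 (limma adjusted p = 0.0164), H2-D1 by 0.88 (limma adjusted p = 0.00437) and B2m by 0.74 (limma adjusted p = 0.0206). H2-Q4 (0.57) and H2-M3 (0.39) did not pass.

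The difference between the DEIX effect in irradiated and in unirradiated mice was tested as an interaction. The interaction was above 0 in all 10 members, with a median of 1.11 against -0.02 over all genes. H2-Q6 (2.79, SE 0.34, limma adjusted p = 0.0142) and H2-Q4 (1.79, SE 0.27, limma adjusted p = 0.0268) passed. They were 2 of 21 genes called higher, 0.191% of those tested. H2-Q7 (2.35, SE 0.55) and Nlrc5 (1.27, SE 0.29) did not, each with limma adjusted p = 0.142, and H2-K1 (1.49, SE 0.37) had limma adjusted p = 0.177. H2-Q6 and H2-Q7 summed gave 2.65 (limma adjusted p = 0.048). Without TBI+DEIX replicate 1 all 10 members passed, as did 2.57% of genes in the higher direction. H2-Q6 kept its call when any 1 of the 12 libraries was left out, and H2-Q4 lost it without any 1 of 8 of them: the 3 control libraries, the 3 DEIX libraries, TBI replicate 2 and TBI+DEIX replicate 2 (limma adjusted p from 0.0538 to 0.099). The control libraries enter both TBI against control and DEIX against control, and each comparison's values above share them.

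**Figure D2:**
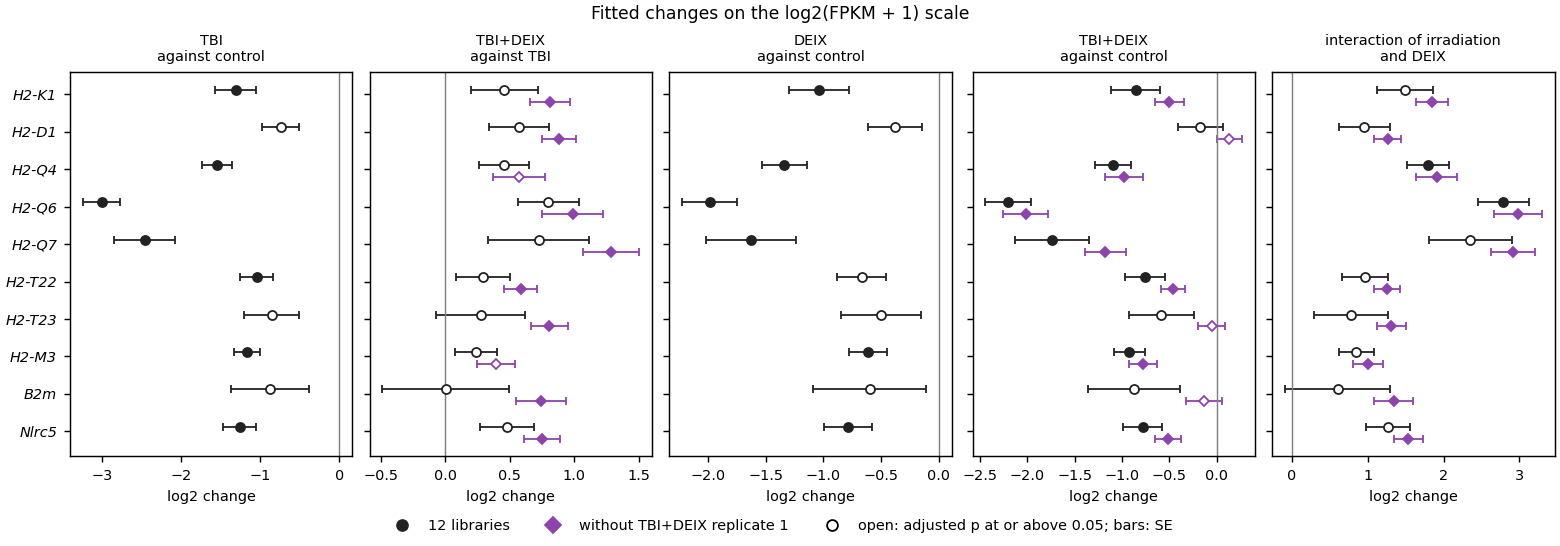
Fitted change of each member on the log2(FPKM + 1) scale with its SE, 1 panel per comparison; filled symbols had a limma adjusted p under 0.05. Circles use all 12 libraries and diamonds leave out TBI+DEIX replicate 1, which moves the members called in TBI+DEIX against TBI from 0 to 8 of 10; B2m, near 0 there, turns negative under the TPM and median-of-ratios scalings.

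Ratios within a library also differed between groups. H2-D1 stood at 1.35, 1.35 and 1.46 times H2-K1 in control, 2.34, 1.89 and 1.95 in TBI, 2.18, 2.13 and 2.23 in DEIX, and 2.37, 2.43 and 1.91 in TBI+DEIX. All 9 treated libraries were above all 3 controls in this ratio. The Qa-2 genes H2-Q6 and H2-Q7 together were 20.7%, 23.2% and 16.4% of H2-K1 in control, 5.33%, 7.98% and 7.27% in TBI, 8.15%, 9.41% and 9.10% in TBI+DEIX, and 10.65%, 11.7% and 11.3% in DEIX. None of the 4 groups overlapped another in this ratio: TBI was lowest, then TBI+DEIX, DEIX and control, with TBI and TBI+DEIX closest at 7.98% against 8.15%. H2-T23 was 20.5% to 24.6% of H2-K1 in control, 27.3% to 35.1% in TBI, 28.9% to 34.4% in DEIX and 20.6% to 32.7% in TBI+DEIX.

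The summed FPKM of the 8 heavy chains was 1497 to 1912 in control, 822 to 882 in TBI, 1056 to 1098 in DEIX, and 765, 1396 and 1674 in TBI+DEIX. H2-K1 and H2-D1 made up 77.8% to 80.0% of that sum in control and 82.5% to 86.1% in the treated libraries. B2m stood at 1.09 to 1.54 times the heavy chain sum in control, 1.38 to 1.62 in TBI and 1.37 to 1.62 in DEIX. In TBI+DEIX it stood at 0.608, 1.36 and 1.48, and the 0.608 of replicate 1 was the lowest of all 12 libraries. H2-Q6 over H2-Q7 was highest of all 12 libraries in that same library, at 1.39 against 0.591 and 0.606 in TBI+DEIX replicates 2 and 3 and 1.05 to 1.18 in control.

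**Figure D3:**
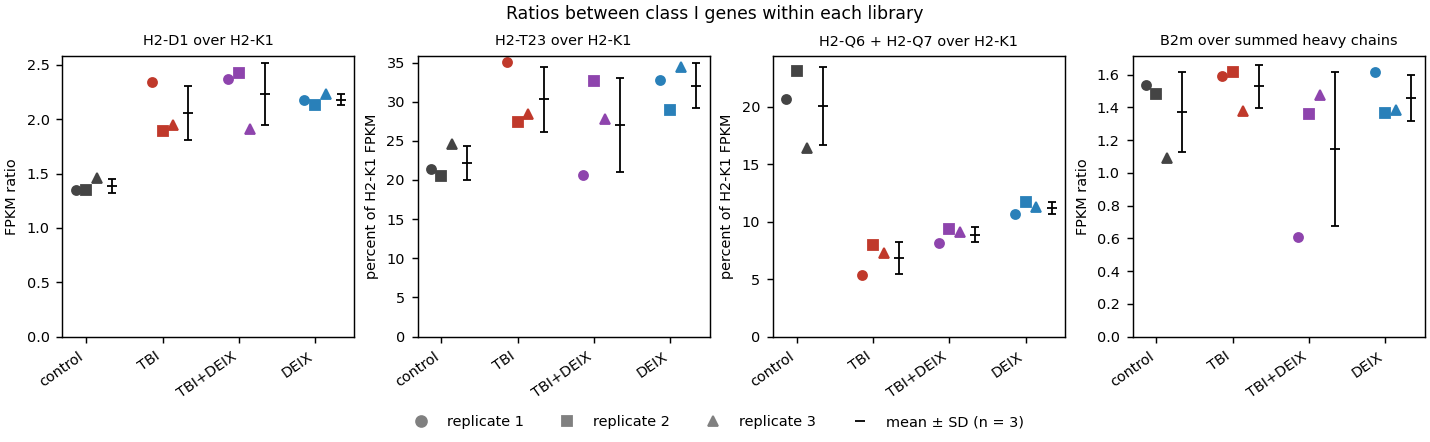
Ratios of FPKM within each library (points, with the replicate number as the symbol) and the group mean ± SD (n = 3), on linear axes from 0. H2-D1 over H2-K1 is higher and H2-Q6 plus H2-Q7 over H2-K1 is lower in all 9 treated libraries than in all 3 controls, and B2m over the heavy chains is lowest in TBI+DEIX replicate 1.

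The other genes of the pathway were read from lists chosen by function, with earlier results known. Of 29 other class I and class I-like genes, 22 were in the table and 6 passed the filter on low values. Cd1d1, which presents lipids to natural killer T cells, fell in TBI by 0.65 (limma adjusted p = 0.0218), in DEIX by 0.92 (limma adjusted p = 0.00534) and in TBI+DEIX by 0.83 (limma adjusted p = 0.0014), each against control. Fcgrt, the neonatal Fc receptor, fell by 1.10 in TBI+DEIX against control (limma adjusted p = 0.0144). H2-T24 was the most abundant gene of this list and did not pass. It stood at 57.2, 56.6 and 55.7 FPKM in control, 29.9, 25.6 and 21.98 in TBI, 29.7, 28.3 and 43.3 in DEIX, and 6.95, 48.0 and 58.4 in TBI+DEIX. H2-T24 alone of the 6 was called higher in TBI+DEIX against TBI (1.02, limma adjusted p = 0.00612) and in the interaction (1.77, limma adjusted p = 0.00301) without TBI+DEIX replicate 1, where 16.2% and 2.57% of all genes were, a share near 1 of 6 in the first. Cd1d1 and Fcgrt were again called lower against control, as were 15.3% of all genes.

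The peptide supply and loading genes include the peptide transporter and the immunoproteasome. Of 13, 1 fell in TBI against control, 1 fell in DEIX against control, and 1 rose and 2 fell in TBI+DEIX against control. Of all genes tested, 3.10%, 2.72% and 13.1% were called lower in these 3 comparisons, and 16.9% were called higher in the last. Tap1, a subunit of the peptide transporter, stood at 62.1, 73.8 and 69.5 FPKM in control, 35.7, 37.7 and 33.5 in TBI, 42.6, 34.6 and 43.8 in DEIX, and 36.1, 47.1 and 61.2 in TBI+DEIX. Every treated library was below every control. Tap1 fell by 0.92 in TBI (limma adjusted p = 0.0123), by 0.75 in DEIX (limma adjusted p = 0.0264) and by 0.53 in TBI+DEIX (limma adjusted p = 0.0353). Its partner Tap2 rose in TBI+DEIX by 0.52 against TBI (limma adjusted p = 0.023) and by 0.38 against control (limma adjusted p = 0.0262), with limma changes of -0.15 in TBI and -0.03 in DEIX. Psmb10, a subunit of the immunoproteasome, fell by 0.90 in TBI+DEIX against control (limma adjusted p = 0.0128). The peptide-loading chaperone Calr, the most abundant of the list, was at 223 ± 5.91 FPKM in control and 226 ± 25.4 in TBI (SD, n = 3). It was at 280 ± 71.9 in DEIX and 229 ± 45.55 in TBI+DEIX. Tap1 lost its call without TBI+DEIX replicate 1 in TBI+DEIX against control (-0.34, limma adjusted p = 0.0693), Psmb10 kept it at -0.59 (limma adjusted p = 0.00816) and Tap2 kept it at 0.44. The genes called higher in TBI+DEIX against TBI then numbered 3, not 1: Tap2, Tap1 and Tapbp, at 0.59, 0.58 and 0.52. In the interaction 5 of 13 were called higher (Psmb9, Tap1, Psme2, Psme1 and Tap2), against none with all libraries, where 3 had an unadjusted p under 0.05, as had 7.50% of all genes. Of all genes, 16.2% and 2.57% were called higher in these fits.

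Of 16 transcription factors that act on class I promoters, Rfx5, which binds the X box of the module, fell in all 3 treated groups against control, by 0.55 (TBI), 0.43 (DEIX) and 0.59 (TBI+DEIX), with limma adjusted p = 0.0151, 0.0344 and 0.00243. It stood at 8.37, 7.96 and 7.76 FPKM in control and between 4.48 and 6.23 in the other 9 libraries. Irf8, a factor of myeloid and dendritic cells, fell by 1.03 in TBI+DEIX against TBI (limma adjusted p = 0.024) and by 1.92 against control (limma adjusted p = 0.000316), the opposite sign to the members' median in the first of these. Atf1 and Rela rose in TBI+DEIX against control by 0.47 and 0.31 (limma adjusted p = 0.0253 and 0.0309), 2 genes of the 16 where 16.9% of all genes were called higher. It was 4 of the 16 (23.2% of all genes) without TBI+DEIX replicate 1, and Atf1 was then at 0.30. In the fit without TBI+DEIX replicate 1, 6 of the 16 were called higher in TBI+DEIX against TBI, where 16.2% of all genes were. With all libraries none was called higher there (3, Irf8 included, had an unadjusted p under 0.05, as had 27.2% of all genes). Among them were the interferon response factors Irf9 (0.73, limma adjusted p = 0.00974) and Irf1 (0.67, limma adjusted p = 0.00652), while Irf8 was again called lower (-0.73, limma adjusted p = 0.00895), as were 9.59% of all genes and, with all libraries, 3.41%. In the interaction 4 of the 16 were then called higher (2.57% of all genes), against none with all libraries (3 had an unadjusted p under 0.05, as had 7.50% of all genes).

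Among 15 tested genes of a list of receptors and coreceptors of class I molecules and related receptors, 5 fell in TBI against control (3.10% of all genes were called lower), led by Klra4 (-1.43, limma adjusted p = 0.00921) and Klrk1 (-1.06, limma adjusted p = 0.0415), receptors of natural killer cells. Pirb, an inhibitory receptor of myeloid and B cells that binds class I, and Lilr4b and Lilrb4a, which are not established as class I receptors, were called higher under DEIX. Pirb stood at 70.3, 67.0 and 67.4 FPKM in control, 116, 87.1 and 71.9 in TBI, 183, 140 and 152 in DEIX, and 205, 172 and 208 in TBI+DEIX. All 6 libraries of DEIX-treated mice were above all 6 others. Pirb rose by 1.19 in DEIX against control (limma adjusted p = 0.00447) and by 1.10 in TBI+DEIX against TBI (limma adjusted p = 0.0118). Lilr4b and Lilrb4a rose in the same 2 comparisons, by 0.98 and 0.89 in DEIX against control (limma adjusted p = 0.0086 and 0.0333) and by 1.13 and 0.88 in TBI+DEIX against TBI (limma adjusted p = 0.0114 and 0.0349). Cd244a made it 4 genes of this list called higher in DEIX against control. It stood at 11.9 to 14.7 FPKM in DEIX and 5.07 to 5.60 in control. Of all genes tested, 4.52% were called higher in DEIX against control and 4.69% in TBI+DEIX against TBI. Without TBI+DEIX replicate 1 the genes called higher in TBI+DEIX against TBI went from 3 to 7 of 15 (16.2% of all genes), with Cd244a, Klrc1, Cd8a and Klrc2 beside these 3. In the interaction 3 were then called higher (2.57% of all genes), against none with all libraries (7 had an unadjusted p under 0.05, as had 7.50% of all genes).

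The genes whose pattern over the 12 libraries was most like the members' mean centred log2 profile were, of 8329 genes compared, Ifi47 (Pearson r = 0.985), Trim34a (0.975), Ifi35 (0.971), Parp9 (0.964), Trim30d (0.964), Ifit3b (0.960), Cd2 (0.959), Irgm1 (0.958), Ifit3 (0.952) and Tap1 (0.950). These r values are descriptions over libraries that share their groups, and over the 11 libraries without TBI+DEIX replicate 1 they ran from 0.948 to 0.982. Ifi47, a GTPase, stood at 44.5, 51.2 and 45.9 FPKM in control, 19.1, 21.0 and 17.5 in TBI, 22.7, 22.02 and 24.9 in DEIX, and 15.3, 25.7 and 32.7 in TBI+DEIX. Among the members, r with the mean of the other 9 was highest for H2-Q7 (0.992) and Nlrc5 (0.990) and lowest for B2m (0.794) and H2-D1 (0.842).

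Of 26 interferon-stimulated genes, 7 fell in TBI, 7 in DEIX and 11 in TBI+DEIX against control, with median changes of -1.55, -1.39 and -1.35. Of all genes tested, 3.10%, 2.72% and 13.1% were called lower in these comparisons. Without TBI+DEIX replicate 1 the median in TBI+DEIX against control was -0.49, with 11 again called lower (15.3% of all genes) and 1, Gbp2, called higher (23.2% of all genes). Irgm1, a GTPase of cell defence, fell by 1.29 in TBI (limma adjusted p = 0.0232) and by 1.21 in DEIX (limma adjusted p = 0.0267). Ifi27l2a, the most abundant of the list, stood at 626, 766 and 735 FPKM in control, 52.8, 130 and 66.4 in TBI, 74.5, 55.1 and 93.6 in DEIX, and 2.62, 158 and 302 in TBI+DEIX. The summed level of the list was 1394 to 1711 FPKM in control, 311 to 421 in TBI, 302 to 477 in DEIX, and 131, 681 and 1138 in TBI+DEIX. Its lowest library was again TBI+DEIX replicate 1. In TBI+DEIX against TBI none of the 26 was called by limma with all libraries (3 had an unadjusted p under 0.05, as did 27.2% of all genes), and 20 were called higher without that library, as were 16.2% of all genes. In the interaction none was called with all libraries (15 had an unadjusted p under 0.05, as did 7.50% of all genes), and 23 were called higher without it, as were 2.57% of all genes.

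Class II genes, which serve CD4+ T cells and are expressed by B cells and other antigen-presenting cells, passed the test in part. Of 10 tested, 3 fell in TBI (H2-Ob by 2.26, H2-Oa by 1.57 and H2-DMb2 by 1.32, limma adjusted p = 0.0176, 0.00949 and 0.0192), none in DEIX (2 with an unadjusted p under 0.05, as had 24.7% of all genes), and 4 in TBI+DEIX, each against control by limma, beside the same shares of all genes (3.10%, 2.72% and 13.1%). The summed level was 858 to 1022 FPKM in control, 319 to 582 in TBI, 474 to 679 in DEIX and 184 to 874 in TBI+DEIX. Leaving out TBI+DEIX replicate 1, 4 were again called lower against control, and Cd74, the invariant chain, was called higher in TBI+DEIX against TBI (1.26, limma adjusted p = 0.00646) and in the interaction (1.90, limma adjusted p = 0.00649), beside 15.3%, 16.2% and 2.57% of all genes in these 3 calls.

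Marker lists of the cell types in marrow were read beside these results. The summed level of 15 B lineage markers was 626 to 770 FPKM in control, 36.3 to 419 in TBI, 92.7 to 138 in DEIX, and 9.46, 231 and 104 in TBI+DEIX. Of the 15, 7 fell in TBI, 5 in DEIX and 13 in TBI+DEIX against control, where 3.10%, 2.72% and 13.1% of all genes were called lower. Without TBI+DEIX replicate 1, 11 fell in TBI+DEIX (15.3% of all genes). By limma none was called in TBI+DEIX against TBI with or without that library (1 had an unadjusted p under 0.05 with all libraries, as had 27.2% of all genes), and 3 were called higher in the interaction without it (2.57% of all genes). Cr2 and Fcmr were at 0 in 1 library each, and no other gene of this list was. The 17 T and natural killer cell markers summed to 205 to 240 FPKM in control, 117 to 156 in TBI, 159 to 214 in DEIX, and 69.5, 162 and 175 in TBI+DEIX. Of 16 tested, 5 fell in TBI, 2 in DEIX and 5 in TBI+DEIX against control (3.10%, 2.72% and 13.1% of all genes). Without TBI+DEIX replicate 1, 5 fell and 1 rose in TBI+DEIX against control (15.3% and 23.2% of all genes). In TBI+DEIX against TBI, 1 was called higher with all libraries and 8 without that library (4.69% and 16.2% of all genes). Cd3g and Cd2 had the largest changes in the latter fit, at 0.89 and 0.87. In the interaction 7 were then called higher (2.57% of all genes), against none with all libraries (7 had an unadjusted p under 0.05, as had 7.50% of all genes). The 10 dendritic cell markers, of which Cd209a was at 0 in 1 library, summed to 156 to 180 FPKM in control, 57.7 to 76.7 in TBI, 78.3 to 98.2 in DEIX and 25.6 to 62.9 in TBI+DEIX. Bst2, which is also interferon-induced, made up much of that sum, at 72.1 to 99.7 FPKM in control. Of 9 tested, 2 fell in TBI+DEIX against TBI with all libraries and 4 without TBI+DEIX replicate 1 (3.41% and 9.59% of all genes), the opposite direction to class I. Against control 7 fell in TBI+DEIX with and without that library (13.1% and 15.3% of all genes). Siglech, a marker of plasmacytoid dendritic cells, stood at 25.3 to 28.1 FPKM in control, 7.81 to 10.43 in TBI, 13.8 to 18.4 in DEIX and 2.26 to 5.94 in TBI+DEIX. The 10 megakaryocyte and platelet markers summed to 113 to 173 FPKM in control, 25.3 to 48.1 in TBI, 63.1 to 106 in DEIX and 25.7 to 42.1 in TBI+DEIX. Of 9 tested, 5 fell in TBI and 1 in DEIX against control (3.10% and 2.72% of all genes). In TBI+DEIX 7 fell against control with and without replicate 1 (13.1% and 15.3% of all genes). Monocyte and macrophage markers summed to 2431 to 2497 FPKM in control, 1609 to 2527 in TBI, 2842 to 3166 in DEIX and 1000 to 3041 in TBI+DEIX. In the interaction these 15 moved in both directions. With all libraries C1qa, C1qb and C1qc, subunits of complement C1q, were called higher (0.191% of all genes), at 2.52, 2.43 and 2.27 (limma adjusted p = 0.0142, 0.0142 and 0.016), and Fn1, fibronectin, was called lower (0.00910% of all genes), at -2.20 (limma adjusted p = 0.0142). The median of the 15 was -0.54. Without TBI+DEIX replicate 1, 3 were called higher and 3 lower (2.57% and 0.446% of all genes), with a median of -0.07. The part of these cell types in the class I values was not tested. TBI replicate 1 had a B lineage sum of 36.3 FPKM and TBI replicate 3 one of 419, while their heavy chain sums were 843 and 822. The genes of this list did not all spread alike. Vpreb3 ran from 3.35 to 67.1 FPKM in TBI. Ms4a1 and Fcmr were low in every TBI library, at 0.31 to 0.66 and 0.32 to 0.59 FPKM, against 18.0 to 25.2 and 15.9 to 22.3 in control. Markers of neutrophils, the marrow's main cells, were at 24510 to 34290 FPKM in control and 27310 to 35150 in TBI, 28920 to 40990 in DEIX and 23470 to 54040 in TBI+DEIX when S100a8, S100a9 and Ngp, each listed at 0 in some libraries, were left out. None of the 16 neutrophil markers was called in TBI+DEIX against TBI with all libraries (2 had an unadjusted p under 0.05, as had 27.2% of all genes), and 6 were called higher without TBI+DEIX replicate 1 (16.2% of all genes). The 13 erythroid markers summed to 5168 to 8232 FPKM in control, 2811 to 12730 in TBI, 2073 to 11790 in DEIX, and 400, 2508 and 697 in TBI+DEIX. The 3 TBI+DEIX libraries were below every control and TBI library. Of these 13, 3 fell in TBI+DEIX against TBI and 9 against control, beside 3.41% and 13.1% of all genes. Leaving out TBI+DEIX replicate 1 made it 5 and 3, beside 9.59% and 15.3%. The 11 stem and progenitor markers summed to 123 to 130 FPKM in control, 67.8 to 77.1 in TBI, 93.5 to 118 in DEIX and 46.6 to 59.6 in TBI+DEIX. Of 8 tested, 4 fell in TBI and none in DEIX against control (3.10% and 2.72% of all genes). None had an unadjusted p under 0.05 in DEIX against control, where 24.7% of all genes had. In TBI+DEIX 6 fell against control with and without replicate 1 (13.1% and 15.3% of all genes). Cd34, a defining marker, stood at 20.3 to 21.2 FPKM in control, 2.92 to 7.01 in TBI, 13.9 to 18.8 in DEIX and 2.54 to 7.27 in TBI+DEIX. The 8 plasma cell markers summed to 325 to 486 FPKM in control, 360 to 473 in TBI, 280 to 1146 in DEIX, and 244, 574 and 1544 in TBI+DEIX. The 10 stroma and endothelium markers summed to 28.5 to 34.2 FPKM in control, 20.8 to 41.8 in TBI, 12.5 to 21.0 in DEIX and 18.9 to 26.5 in TBI+DEIX.

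**Figure D4:**
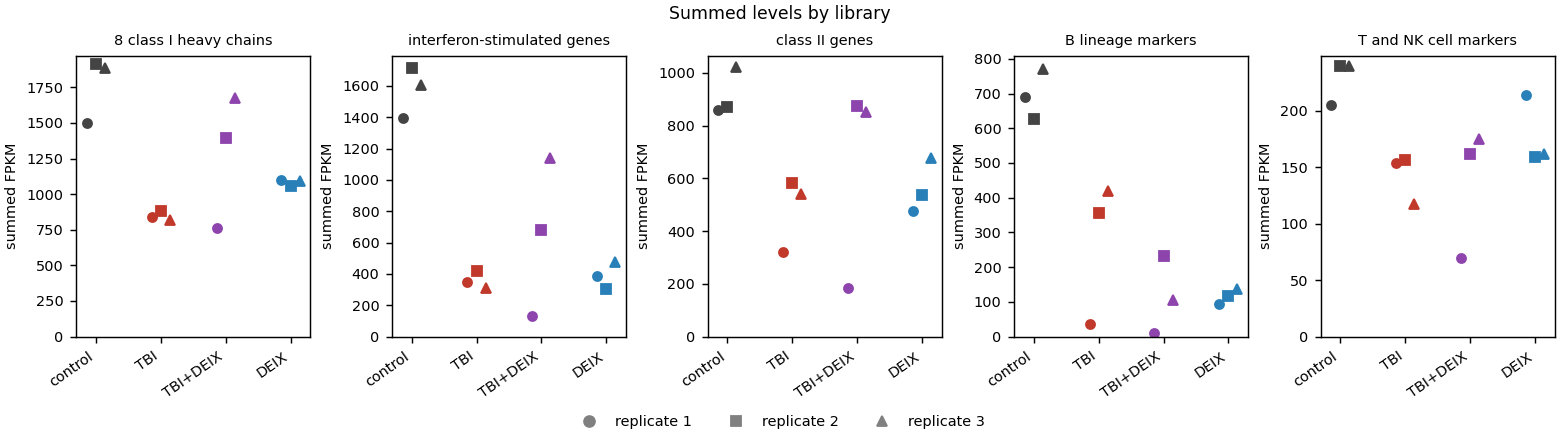
Summed FPKM per library (points, with the replicate number as the symbol) of the 8 class I heavy chains, 26 interferon-stimulated genes, 10 class II genes, 15 B lineage markers and 17 T and natural killer cell markers, on linear axes from 0. TBI+DEIX replicate 1 is the lowest of the 12 libraries in all 5 panels. The 3 TBI libraries run from 822 to 882 in class I and from 36.3 to 419 in the B lineage sum. Not every gene of that sum spreads so (Ms4a1 is at 0.31 to 0.66 FPKM in TBI).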

How the data were processed

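The authors deposited 1 table of FPKM, fragments scaled by transcript length and mapped fragments, for 21853 protein-coding genes in 12 libraries; the libraries were built from total RNA with the strand-keeping messenger RNA kit of MGI, per the labels. STAR 2.6, Cufflinks 2.2.1 and the mm10 build are listed in the submitters' processing notes without roles. How reads shared between gene copies were assigned is not given in the sources used here. All 21853 identifiers matched GENCODE vM21.

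The members and all gene lists were chosen with earlier results of these data known. The 10994 genes that reached 1 FPKM in 3 or more libraries were tested with limma 3.58.1 in R 4.3.3 on log2(FPKM + 1), with 4 group means over all 12 libraries (8 residual degrees of freedom), a mean-variance trend and Benjamini-Hochberg adjustment over all genes. A gene was called at an adjusted p under 0.05. All 10 members are named. Of the other lists, called genes (up to 5 by size of change), the 3 with the highest mean FPKM and defining markers may be named. Likeness was Pearson r over the tested genes whose mean reached 5 FPKM. Alternatives were another pseudocount (0.1), other filters and scalings, array weights, a replicate block and leaving out each library; counts of called genes in comparisons of the TBI+DEIX group are also given without TBI+DEIX replicate 1, because its values were seen to stand apart.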

Additional observations from a re-analysis of the deposited data

Results flagged for a closer look

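The effect of DEIX differed between irradiated and unirradiated mice for 2 members by the limma interaction test, adjusted over all genes, where 0.191% of genes were called higher. For H2-Q6 the DEIX effect in irradiated mice (0.80 on the log2 scale) minus that in unirradiated mice (-1.99) was 2.79, with limma adjusted p = 0.0142, and every DEIX library was below every control (17.2% of all genes) while every TBI+DEIX library was above every TBI library (14.5% of all genes). The split of reads between H2-Q6 and H2-Q7 is uncertain. Their sum overlapped between TBI (11.35 to 20.3 FPKM) and TBI+DEIX (15.9 to 44.1 FPKM), and the same difference for the sum was 2.65 (limma adjusted p = 0.048). For H2-Q4 the same difference was 1.79 (limma adjusted p = 0.0268), from 0.45 and -1.34, and it missed the threshold without any 1 of 8 libraries (limma adjusted p from 0.0538 to 0.099). The DEIX effect in irradiated mice did not itself pass for H2-Q6 or H2-Q4 (limma adjusted p = 0.0621 and 0.161). That in unirradiated mice passed for both (limma adjusted p = 0.00286 and 0.00534).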

How the results depend on the processing

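Over the alternatives run, the members' median kept its sign in every comparison, from -1.32 to -1.13 in TBI against control, -0.89 to -0.65 in DEIX against control, 0.21 to 0.78 in TBI+DEIX against TBI and 0.90 to 1.44 in the interaction. Leaving out each library in turn moved the median in TBI+DEIX against control between -1.12 and -0.50. The number of members called by limma was less steady; the share of all genes called in either direction by the same fit follows each number. In TBI against control it was 10 when only the compared groups were fitted (12.9%) and with array weights (38.4%), 8 on the TPM scale without S100a8, S100a9 and Ngp (2.68%) and 5 with any 1 of the 6 libraries left out (1.39% to 2.36%). In TBI+DEIX against TBI it was 7 with array weights (40.8%), and from 0 to 8 with each library left out (0.0455% to 25.8%), the 8 being without TBI+DEIX replicate 1 (25.8%). In DEIX against control it was 2 with no filter on low values (4.65%), 10 with array weights (41.0%) and 2 with each library left out (1.33% to 8.53%). In TBI+DEIX against control it was 4 when only the compared groups were fitted (19.8%) and from 4 to 7 with each library left out (18.2% to 38.5%), the 4 being without control replicate 2 (18.2%). In the interaction it was 4 on the TPM scale (0.255%), 10 with array weights (4.84%) and from 1 to 10 with each library left out (0.0364% to 3.01%), the 10 being without TBI+DEIX replicate 1 (3.01%). The cause of these moves was not tested.

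Signs turned in single genes. B2m in TBI+DEIX against TBI was -0.13 on the TPM scale, -0.10 on that scale without S100a8, S100a9 and Ngp (an alternative chosen after seeing the data) and -0.016 on the median-of-ratios scale, and ran from -0.46 to 0.74 with each library left out. H2-T23 in that comparison ran from -0.051 to 0.81. H2-D1 in TBI+DEIX against control was 0.044 with array weights and ran from -0.36 to 0.14. The cause was not tested.

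Correlations between deviations from group means ran from -0.45 to 0.24 over 18 pairs of libraries of the same number. They ran from -0.37 to 0.50 over 36 pairs of different number. With 3 libraries a group these values cannot show whether the numbers pair the libraries. With the replicate number as a block (replicate block), 1 member, H2-Q6, was called in TBI+DEIX against TBI (limma adjusted p = 0.0447; 4.31% of all genes called), and H2-M3 lost its call in DEIX against control (limma adjusted p = 0.0752). The block changed no other member's call. The TPM scale moved the median of all genes to -0.12 in DEIX against control, where 54 genes were called higher and 228 lower against 497 and 299 on the FPKM scale. In TBI+DEIX against TBI it gave 54 higher and 103 lower against 516 and 375, and in TBI+DEIX against control 546 and 1239 against 1855 and 1444. The members' median minus that of all genes was -0.77 on the TPM scale and -0.74 on the FPKM scale in DEIX against control. Total reads are unknown, so no counting error can be given.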
